A study of Mus musculus with 24 samples.

Results

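C1qa, C1qb and C1qc encode the A, B and C chains of C1q, the recognition molecule of the classical complement pathway, and were examined in retinal microglia of a mouse glaucoma model. The members were the rows of the deposited gene tables whose gene identifiers map to these symbols, and all 3 of 3 were found among 47729 gene identifiers. Each of the 3 had reads in every one of the 24 retinas and passed the filter on low counts.

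C1q is built from an equal number of A, B and C chains, which trimerise through a collagen-like stalk and end in globular heads that bind antibody complexes and other targets. Bound C1q activates the proteases C1r and C1s, which cleave C4 and C2 and so lead to C3. In nervous tissue microglia are the main source of C1q, and C1q and C3 are known for tagging synapses that microglia then remove, in the retina and its targets among other places.

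Microglia were sorted from single dissected retinas as CD11b+ Fcrls+ cells without Ly6c, at 100 to 600 cells per retina by the labels, and the RNA of each retina was sequenced as 1 library. The study had 3 groups of 5 animals, and all animals carried Tyrp1b-/- and were untreated. DBA/2J mice of the genotype Gpnmb-/- Tyrp1b-/-, inbred mice in which glaucoma develops with age, were taken at 12 months (10 retinas, both eyes of each animal) and at 6 months (5 retinas, 1 eye of each animal, labelled early disease). DBA/2J Gpnmb+ mice, of the genotype Gpnmb+/+ Tyrp1b-/-, served as 12-month controls (9 retinas, with 1 eye for animal 4). Every 12-month DBA/2J retina carries a grade of disease in the labels: mild for both eyes of animal 4 and the right eye of animal 5, moderate for the right eye of animal 1, both eyes of animal 2 and the left eye of animal 5, and severe for the left eye of animal 1 and both eyes of animal 3. Age and strain differ together between 6-month DBA/2J and 12-month Gpnmb+ mice.

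Levels are given in CPM, a gene's counts per 1e6 counts of its library. Library totals ran from 977886 to 20081114 counts per retina, with a median of 11353044. Fewer than 10000 genes were detected in 5 retinas, both eyes of Gpnmb+ animals 1 and 2 and the right eye of Gpnmb+ animal 3, and the left eye of 12-month DBA/2J animal 4 and the right eye of Gpnmb+ animal 2 had under 20% of the median total. Gpnmb had reads in 1 of 9 Gpnmb+ retinas and in 0 of 15 DBA/2J retinas, so this gene gives little check of the genotype labels in these cells. Of 12 microglia identity markers, 11 had reads in every animal and Fcrls, whose protein the sort used, in 14 of 15. Of other blood cells, S100a8, S100a9 and Ly6g, markers of neutrophils, were at 0 throughout. All 9 neutrophil markers summed to at most 0.0 CPM in 12-month DBA/2J, 2.29 in Gpnmb+ and 8.45 at 6 months. Ly6c2, the monocyte gene that the sort selects against, was at 0 in both DBA/2J groups. Other monocyte markers did have reads, among them Ccr2 in every animal, with up to 41.6 CPM in 12-month DBA/2J.

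The 3 genes lie side by side on the minus strand of chromosome 4 (GRCm38, GENCODE M21), with no other annotated gene between them: C1qb at chr4:136880129-136886187, C1qc at chr4:136889804-136893065 and C1qa at chr4:136895917-136898803. The cluster spans 18675 bases, with gaps of 3616 bases between C1qb and C1qc and 2851 bases between C1qc and C1qa. Each gene has a 3-exon transcript, of 1040 bases in C1qa, 1088 in C1qb and 1203 in C1qc, and C1qc has a second annotated transcript of 946 bases. The lengths that the deposited tables give for C1qc, weighted by transcript, were 1188 to 1203 bases in the 24 retinas, close to the longer transcript. Within 200 kb the annotation also has Ephb2, Epha8, Zbtb40 and the small RNA gene Gm23834. Epha8 and Gm23834 had 0 counts in all animals and Ephb2 had reads in 2 of 15. Zbtb40, a zinc finger gene, had a log2 fold change of 0.79 ± 1.12 (SE) between 12-month DBA/2J and Gpnmb+ mice, so its error exceeded its change.

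Because neighbouring genes of 1 complex are compared here, the bases just before the starts of C1qb and C1qc are shown for orientation, from RefSeq (GRCm38.p6), 5′ to 3′ on the genes' own strand. The RefSeq promoter table used here matched 2 of the 3 members. For C1qb the 250 bases at chr4:136886201-136886450 are given, and for C1qc the 99 bases at chr4:136893066-136893164 that precede both the RefSeq and the GENCODE start. Capitals mark matches to the motifs searched.
C1qb: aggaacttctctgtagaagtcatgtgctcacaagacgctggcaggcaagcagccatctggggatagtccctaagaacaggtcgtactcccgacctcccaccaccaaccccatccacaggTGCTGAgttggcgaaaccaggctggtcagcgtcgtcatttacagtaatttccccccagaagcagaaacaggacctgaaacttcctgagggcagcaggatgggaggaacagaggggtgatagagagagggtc
C1qc: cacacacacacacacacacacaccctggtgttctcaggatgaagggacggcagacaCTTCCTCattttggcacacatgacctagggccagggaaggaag
In the 250 bases before the RefSeq start, on both strands, 5 motifs linked to macrophage genes or to the basal promoter were searched, of which GAGGAAG can overlap GGAANNGAA. The core motif of the myeloid factor PU.1, GAGGAAG, was found in C1qc on the opposite strand, and 10.6% of 32851 promoters of the table hold it. It reads CTTCCTC there, at bases 188 to 194 before the RefSeq start. The GENCODE start of C1qc lies further upstream, inside the 250 bases searched, so positions counted from it differ. The MAF-type motif TGCTGA was found in C1qb at bases 126 to 131 before the start, and 16.1% of promoters hold it. The PU.1-IRF motif GGAANNGAA (6.99% of promoters), the interferon response motif GAAANNGAA (7.13%) and the TATA box TATAAA (12.4%) were not found in either window. These matches are a description of the letters and were not related to expression.

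All 3 chains ranked among the most abundant transcripts of the sorted cells. On the deposited TPM scale, which corrects for transcript length, C1qa ranked between 7 and 26 among all genes of a retina, C1qb between 7 and 29 and C1qc between 10 and 95. Together the chains took 0.541% to 1.55% of the counts of a retina. Since the samples are pools of cells, fewer C1q-expressing cells and less C1q RNA per cell cannot be told apart.

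C1qa and C1qb RNA averaged higher in microglia of 12-month DBA/2J than of 12-month Gpnmb+ mice. Neither had an adjusted p under 0.05 by edgeR's test, and for C1qc no difference was detected. Both eyes' counts were added up within an animal and scaled to CPM, here with TMM factors, and n counts animals. C1qa, the A chain, had 4671, 4461, 4106, 4906 and 3487 CPM in 12-month DBA/2J animals 1 to 5. In Gpnmb+ animals 1 to 5 it had 2654, 2240, 2976, 2634 and 3344 CPM. The groups did not overlap, although the lowest DBA/2J animal and the highest Gpnmb+ animal lay close together. The means were 4326 ± 554 and 2770 ± 414 CPM (SD, n = 5 each). The log2 fold change was 0.64 ± 0.13 (SE), with a 95% interval from 0.37 to 0.92, and edgeR's quasi-likelihood test gave an unadjusted p of 0.000109 and an adjusted p of 0.313.

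C1qb, the B chain, had 5155, 4539, 3932, 5894 and 3316 CPM in 12-month DBA/2J animals 1 to 5. In Gpnmb+ animals 1 to 5 it had 3005, 2224, 3098, 2441 and 2990 CPM. Again every DBA/2J animal was above every Gpnmb+ animal, and animals 4 and 1 were the highest and animal 5 the lowest for both chains. The means were 4567 ± 1009 and 2752 ± 392 CPM (SD, n = 5 each). The log2 fold change was 0.73 ± 0.16 (SE), with a 95% interval from 0.40 to 1.06, an unadjusted p of 0.000201 and an adjusted p of 0.313 by edgeR's test.

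C1qc, the C chain, had 1131, 1767, 1412, 1979 and 1608 CPM in 12-month DBA/2J animals 1 to 5. In Gpnmb+ animals 1 to 5 it had 2332, 2246, 1271, 775 and 2890 CPM. The Gpnmb+ animals lay on both sides of the DBA/2J range, with animals 1, 2 and 5 above it, animal 3 within it and animal 4 below it. The means were 1580 ± 326 and 1903 ± 858 CPM (SD, n = 5 each). The log2 fold change was -0.27 ± 0.31 (SE), and its 95% interval, from -0.93 to 0.39, includes changes in both directions.

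No gene passed the adjusted threshold of 0.05 in this comparison by edgeR's test (0.0% of 12977 genes), so no chain was called. Higher in DBA/2J by an unadjusted p below 0.05 were 358 genes, 2.76% of those tested, beside 318 lower ones. C1qa and C1qb, 2 of the 3 chains, were among the higher ones, at the 3rd and 7th smallest p of all genes. In 108 genes, 0.832% of those tested, every DBA/2J animal was above every Gpnmb+ animal, and these 2 chains were among them. DESeq2, run as an alternative without the low-count filter, called 226 of the 23782 genes to which it gave a p-value. It adjusts only over genes that pass its own filter, and their number was not counted. DESeq2 gave C1qa an adjusted p of 0.000503 and C1qb one of 0.0220. Over the 22 alternatives the adjusted p ran from 0.000503 to 0.925 for C1qa and from 0.0220 to 0.925 for C1qb, while the fold changes stayed positive.

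Single retinas, scaled to library totals, gave the same picture with more overlap. C1qa ranged from 3587 to 5223 CPM with a median of 4123 in 12-month DBA/2J retinas, from 1624 to 3602 with a median of 2669 in Gpnmb+ and from 3062 to 3329 with a median of 3190 at 6 months. The right eye of Gpnmb+ animal 5, at 3602, was level with the lowest DBA/2J retinas, the right eye of animal 2 at 3587 and the left eye of animal 5 at 3603. C1qb ranged from 3403 to 8054 CPM (median 4204) in 12-month DBA/2J, from 1638 to 3149 (median 2543) in Gpnmb+ and from 2840 to 3445 (median 2915) at 6 months. Its highest value came from the left eye of animal 4, a retina of low depth. Every 12-month DBA/2J retina was above every Gpnmb+ retina, but the eyes of an animal are not independent. How many genes have this pattern was counted by animal only (0.832%). C1qc ranged from 972 to 2241 CPM (median 1379), from 800 to 3295 (median 1793) and from 1042 to 2848 (median 2776) in the same order, so that the Gpnmb+ retinas covered the whole range of the others.

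**Figure D1:**
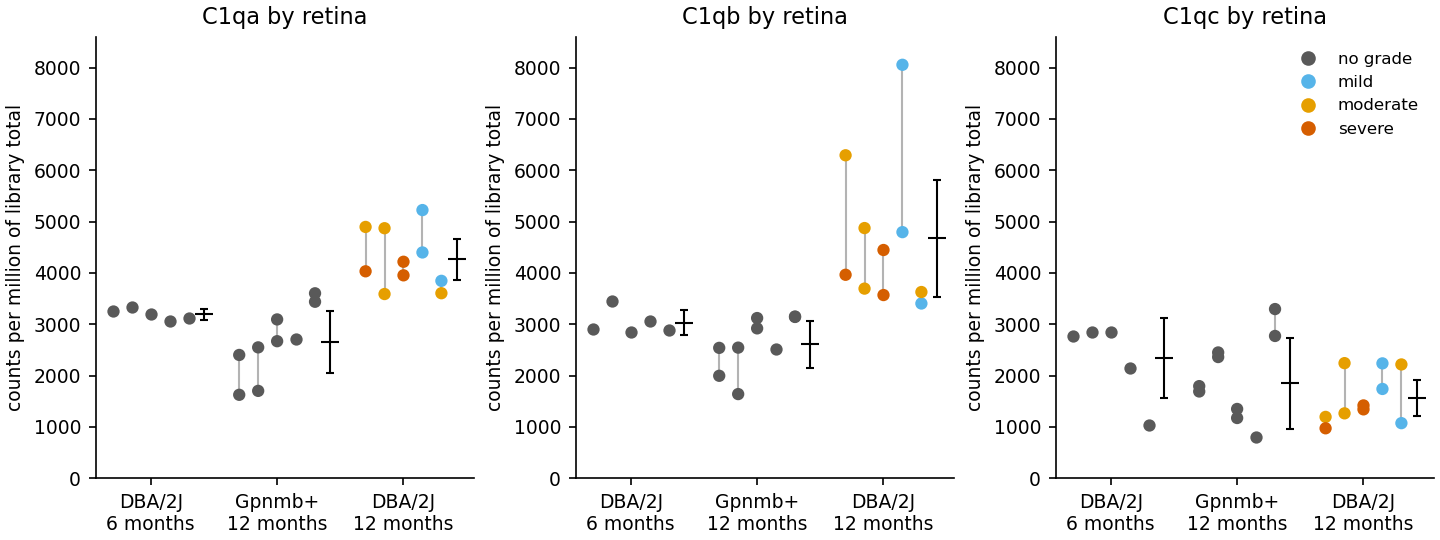
C1qa, C1qb and C1qc in each retina, in CPM of the library total on a linear axis. Points are retinas, coloured by grade, grey lines join the eyes of an animal, and the bars give the mean and SD over the 5 animals' means. C1qa (3587 to 5223) and C1qb (3403 to 8054) lie highest in 12-month DBA/2J, with single retinas of other groups reaching their lower ends, whereas C1qc overlaps throughout.

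The same 2 chains averaged higher at 12 than at 6 months of age within DBA/2J, again without an adjusted p under 0.05 by edgeR. At 6 months C1qa had 2964, 3169, 2995, 3047 and 2833 CPM in animals 1 to 5, with a mean of 3002 ± 123 (SD, n = 5). This was the narrowest spread of any chain in any group, with a coefficient of variation of 4.08% against 12.8% in 12-month DBA/2J and 14.9% in Gpnmb+ mice. The 6-month libraries, 1 eye per animal, were also the most even in depth, with 12043911 to 17993059 counts and 13818 to 16716 genes. The lowest totals were 1706775 in 12-month DBA/2J and 977886 in Gpnmb+ retinas. The part of depth in this spread was not tested. C1qb had 2652, 3280, 2666, 3051 and 2624 CPM at 6 months, with a mean of 2854 ± 295 (SD, n = 5). All 12-month DBA/2J animals were above all 6-month animals for both chains, and 1.43% of all genes had that pattern. C1qc had 2526, 2707, 2674, 2143 and 945 CPM at 6 months, with a mean of 2199 ± 736 (SD, n = 5). Of these, animals 1 to 4 were above every 12-month DBA/2J animal and animal 5 was below every one.

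From 6 to 12 months the log2 fold change was 0.53 ± 0.13 (SE) for C1qa, with a 95% interval from 0.25 to 0.80, and 0.68 ± 0.16 for C1qb, with an interval from 0.35 to 1.01. For C1qc it was -0.48 ± 0.31, with an interval from -1.14 to 0.18. The unadjusted p by edgeR's test was 0.000761, 0.000419 and 0.147 in that order, and the adjusted p was 0.436, 0.383 and 1.00. Again 0.0% of genes passed the adjusted threshold, and 2.1% were higher at an unadjusted p under 0.05 (273 genes, beside 201 lower), among them 2 of the 3 chains. DESeq2 called 148 of the 23782 genes with a p-value, C1qa (adjusted p = 0.00612) and C1qb (adjusted p = 0.0315) included. Over 22 alternatives the adjusted p ran from 0.00612 to 1.00 for C1qa and from 0.0315 to 1.00 for C1qb. This comparison and the one with Gpnmb+ mice share the 12-month DBA/2J animals. The share of mitochondrial counts also differed by age, with 1.43% to 3.34% (median 1.80%) in 12-month DBA/2J retinas and 0.641% to 1.49% (median 1.17%) at 6 months, beside 1.21% to 4.71% (median 1.94%) in Gpnmb+. Its part in the C1q difference was not tested.

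Between 6-month DBA/2J and 12-month Gpnmb+ mice the chains had log2 fold changes of 0.12 ± 0.13 (C1qa), 0.05 ± 0.16 (C1qb) and 0.21 ± 0.31 (C1qc, each with SE). The 95% intervals were -0.16 to 0.39, -0.28 to 0.38 and -0.45 to 0.87. None of the 3 chains was higher at an unadjusted p under 0.05, which 285 genes (2.2%) were, beside 204 lower (1.57%). The adjusted threshold was passed by 0.0% of genes with edgeR, while DESeq2 called 179 of the 23782 genes with a p-value. Ordered by mean, C1qa and C1qb were highest in 12-month DBA/2J, and 6-month DBA/2J and Gpnmb+ did not differ beyond their spread. C1qc was ordered 6-month DBA/2J, Gpnmb+ and 12-month DBA/2J, and no neighbours in that order differed beyond their spread.

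**Figure D2:**
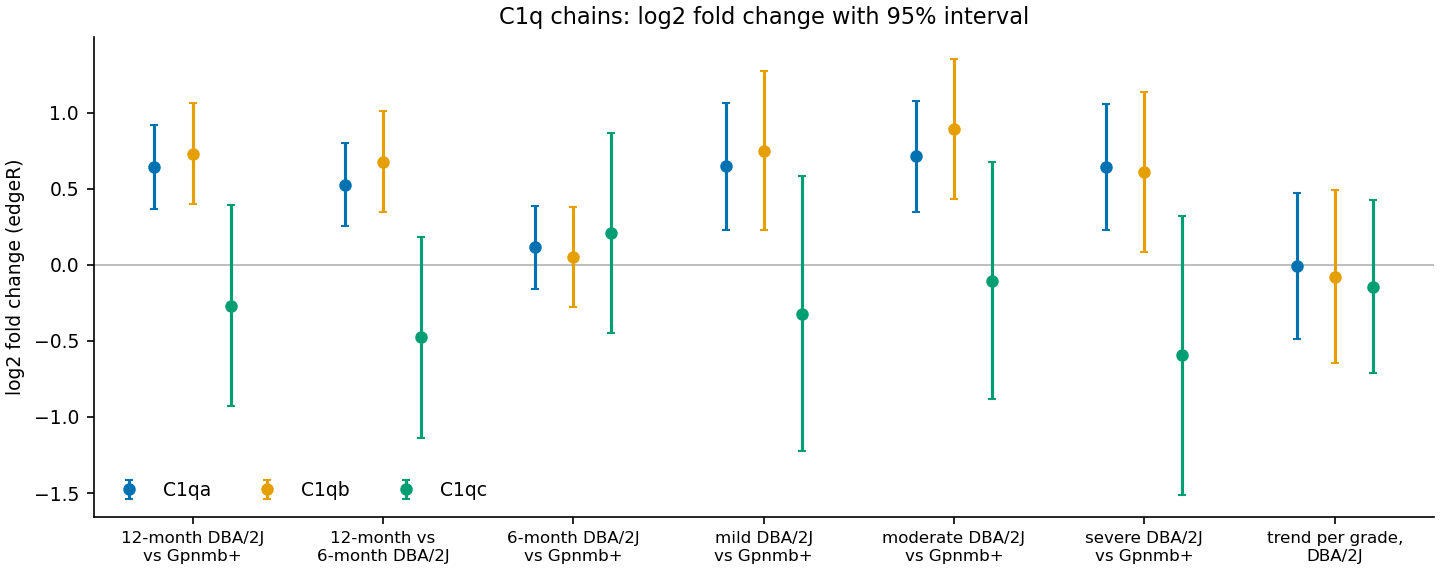
Log2 fold changes of the chains with their 95% intervals, from edgeR, for the group comparisons, for each grade against Gpnmb+ and for the trend per step of grade. The intervals of C1qa and C1qb lie above 0 wherever 12-month DBA/2J is compared with another group, and all intervals of C1qc include 0.

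Among 12-month retinas no order of the chains by grade was detected. Counts were summed by animal and grade, which gave 7 sums of 5 animals. The trend fit treated these sums as independent. C1qa had 4929 and 3607 CPM in the mild sums (animals 4 and 5), 5573, 4411 and 3423 in the moderate ones (animals 1, 2 and 5) and 4384 and 4124 in the severe ones (animals 1 and 3). C1qb had 5921 and 3193 CPM in mild, 7162, 4489 and 3445 in moderate and 4311 and 3949 in severe sums. C1qc had 1988 and 1006 CPM in mild, 1359, 1748 and 2105 in moderate and 1057 and 1418 in severe sums. For C1qa and C1qb the severe sums lay between the highest and lowest sums of the milder grades. Per step of grade the log2 trend was -0.01 ± 0.22 for C1qa, -0.08 ± 0.26 for C1qb and -0.14 ± 0.26 for C1qc (SE). The 95% intervals, -0.49 to 0.47, -0.65 to 0.49 and -0.71 to 0.43, leave room for sizeable changes per step in either direction.

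Set against Gpnmb+ mice, C1qa had log2 fold changes of 0.65 ± 0.20 in mild, 0.71 ± 0.18 in moderate and 0.64 ± 0.20 in severe retinas (SE). C1qb had 0.75 ± 0.25, 0.89 ± 0.22 and 0.61 ± 0.25 in the same order. Both were higher at an unadjusted p under 0.05 in all 3 grades by edgeR's test, which 2.67%, 4.75% and 3.08% of 15959 genes were. No adjusted p passed, the smallest being 0.579 in moderate retinas. C1qc had -0.32 ± 0.43, -0.11 ± 0.37 and -0.59 ± 0.44 and was higher in none. The mild values rest on animal 4, without which C1qa was 0.37 and C1qb 0.21. The moderate value of C1qb was 0.56 without animal 1 and 1.08 without animal 5, in the latter case with an adjusted p of 0.0403, and over its 14 alternatives the adjusted p ran from 0.00493 to 0.854. Each grade holds only 2 or 3 animals, and animals 1 and 5 enter 2 grades each. Their eyes of different grade were treated as independent in these fits.

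The balance of the chains was compared next, since a ratio within a library does not depend on how the library is scaled. Counts were divided by the deposited effective transcript lengths, so that genes can be compared with each other. C1qb and C1qa were close to equal in all groups, with C1qb to C1qa ratios of 0.986 ± 0.100 in 12-month DBA/2J, 0.941 ± 0.089 in Gpnmb+ and 0.895 ± 0.062 in 6-month DBA/2J (SD, n = 5 each). The difference in log2 ratio was 0.07 against Gpnmb+ (exact two-sided permutation p = 0.468) and 0.14 against 6-month DBA/2J (exact permutation p = 0.119).

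C1qc was below C1qa in every animal, with the lowest group mean of the ratio in 12-month DBA/2J and overlapping animals. Its ratio to C1qa was 0.203, 0.330, 0.289, 0.337 and 0.385 in 12-month DBA/2J animals 1 to 5. In Gpnmb+ animals 1 to 5 it was 0.732, 0.830, 0.358, 0.248 and 0.721, and at 6 months it was 0.709, 0.711, 0.748, 0.586 and 0.280. In the control groups the animals thus lay far apart, 3 of 5 Gpnmb+ and 4 of 5 6-month animals above all 12-month DBA/2J animals and the others inside that range. Of all C1q RNA per length, C1qc made up 13.4 ± 2.8% in 12-month DBA/2J, 22.3 ± 8.2% in Gpnmb+ and 23.9 ± 6.4% at 6 months (SD, n = 5 each).

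The log2 ratio of C1qc to C1qa differed by -0.79 ± 0.38 (SE) between 12-month DBA/2J and Gpnmb+ mice, with an exact two-sided permutation p of 0.0952. Against 6-month DBA/2J it differed by -0.92 ± 0.31, with an exact permutation p of 0.0397. For C1qc to C1qb the differences were -0.86 ± 0.38 (exact permutation p = 0.0794) and -1.06 ± 0.32 (exact permutation p = 0.0238). After Benjamini-Hochberg adjustment over the 6 ratio tests none passed 0.05: the exact permutation p became 0.143 against Gpnmb+ and 0.119 against 6-month DBA/2J for both ratios, where the smallest p that 5 animals against 5 allow is 0.00794. It is therefore not shown that C1qc changed differently from the other chains. The call turns on single control animals. Without Gpnmb+ animal 4 the differences from Gpnmb+ were -1.06 and -1.10 with an adjusted exact p of 0.0476, and without 6-month animal 5 those from 6 months were -1.18 and -1.31 with an adjusted exact p of 0.0238. Without the 5 retinas of fewer than 10000 genes, by contrast, the difference from Gpnmb+ in C1qc to C1qa shrank to -0.35 (exact permutation p = 0.482).

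**Figure D3:**
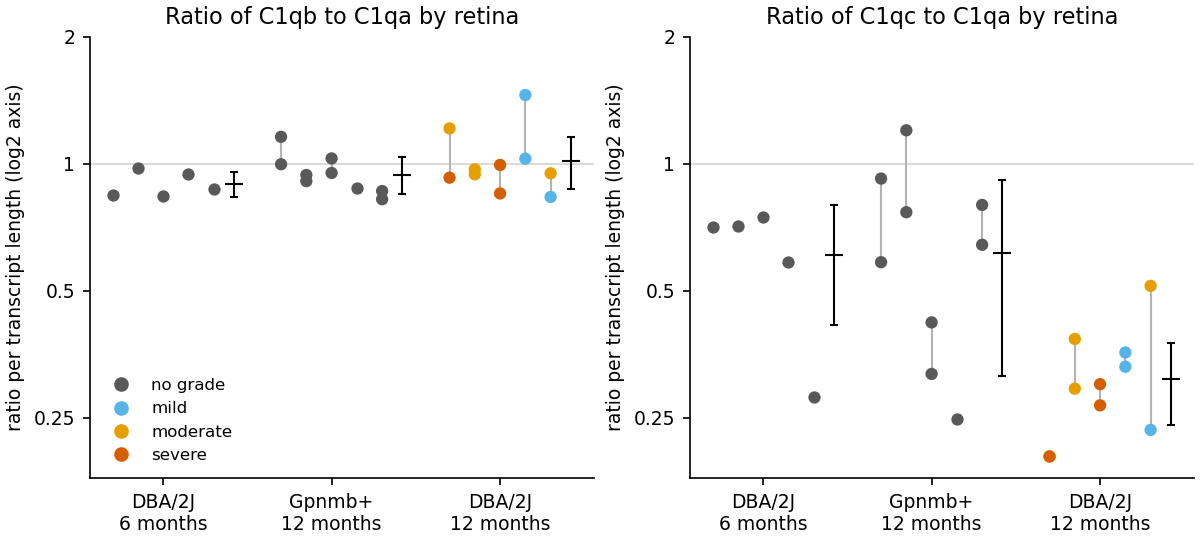
Ratios of C1qb to C1qa and of C1qc to C1qa per transcript length in each retina, on a log2 axis. Points are retinas, coloured by grade, grey lines join the eyes of an animal, and bars give the mean and SD over the animals' means. C1qb lies between 0.835 and 1.46 in 12-month DBA/2J and between 0.824 and 1.16 in Gpnmb+. C1qc lies between 0.203 and 0.514 in 12-month DBA/2J and between 0.248 and 1.20 in Gpnmb+.

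By retina, the ratio of C1qc to C1qa was 0.203 to 0.514 with a median of 0.297 in 12-month DBA/2J, 0.248 to 1.20 with a median of 0.643 in Gpnmb+ and 0.280 to 0.748 with a median of 0.709 at 6 months. Retinas graded severe had 0.203 to 0.301, moderate ones 0.203 to 0.514 and mild ones 0.234 to 0.357, so the grades overlapped. The highest Gpnmb+ value, 1.20, came from the right eye of animal 2, the library with the fewest detected genes (3469), whose fellow eye had 0.768.

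The eyes of an animal resembled each other in part. In the 9 animals with both eyes sequenced, the eyes differed by a median of 1.19-fold in C1qa, 1.27-fold in C1qb and 1.19-fold in C1qc CPM. The widest gaps were 1.50-fold, 1.68-fold and 2.07-fold. Across these animals right and left eyes correlated with Spearman's rho of 0.78 for C1qa (exact permutation p = 0.0172, adjusted over the 5 measures 0.0431), 0.87 for C1qb (exact p = 0.00451, adjusted 0.0225) and 0.60 for C1qc (exact p = 0.0968, adjusted 0.121). Pearson's r was 0.74 (adjusted exact p = 0.0584), 0.66 (0.0907) and 0.63 (0.0907). Without the 2 animals farthest from the median, r was 0.58, 0.85 and 0.20, so for C1qc it rests on those animals. For the ratio of C1qc to C1qa, r was 0.78 (exact p = 0.0139, adjusted 0.0584), rho was 0.70 (adjusted exact p = 0.0721) and r without 2 animals was 0.70. The animals come from 2 groups that differ in C1qa and C1qb, which these coefficients include.

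C1qa and C1qb varied together from animal to animal, and over all 15 animals no such relation was detected for C1qc. Over all 15 animals log2 CPM of C1qa and C1qb had Pearson's r of 0.95 and Spearman's rho of 0.91 (both permutation p = 1e-05, the smallest that 100000 resamples can give). Part of this is the difference between groups, so group means were subtracted. Then r was 0.86 (permutation p = 0.00018, adjusted over the 3 pairs 0.00054) and rho 0.87 (adjusted permutation p = 0.0027), and r was 0.74 without the 2 animals farthest from the median. On deposited TPM values the centred r was 0.74 with an adjusted permutation p of 0.166. In the 10 animals outside 12-month DBA/2J, a set chosen after the data were seen, r was 0.76 (permutation p = 0.00802, adjusted 0.0241) but 0.32 without 2 animals, so there it rests on those. Spearman's rho in these 10 was 0.71 and did not pass (permutation p = 0.0271, adjusted 0.0813).

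For C1qa and C1qc, r over 15 animals was -0.08 (permutation p = 0.772, adjusted 0.800) and rho -0.02 (permutation p = 0.954), with r at 0.02 without 2 animals. With group means subtracted r was 0.19 (permutation p = 0.578, adjusted 0.578) and rho 0.26 (permutation p = 0.371), and r without 2 animals was 0.48. For C1qb and C1qc, r was -0.07 (permutation p = 0.800, adjusted 0.800), rho -0.12 (permutation p = 0.658) and r without 2 animals 0.05. Centred on groups r was 0.20 (permutation p = 0.435, adjusted 0.578), rho 0.29 (permutation p = 0.283) and r without 2 animals 0.20. In the 10 animals outside 12-month DBA/2J, C1qa and C1qc had r of 0.30 (permutation p = 0.411, adjusted 0.411) and rho of 0.64 (permutation p = 0.0561, adjusted 0.0842), with r at 0.42 without 2 animals. C1qb and C1qc had r of 0.32 (permutation p = 0.368, adjusted 0.411) and rho of 0.36 (permutation p = 0.315, adjusted 0.315) there, with r at 0.47 without 2 animals. By rank, C1qa in these animals was thus nearly as close to C1qc as to C1qb. CPM values of 1 library share its total, and depth differs between the libraries.

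**Figure D4:**
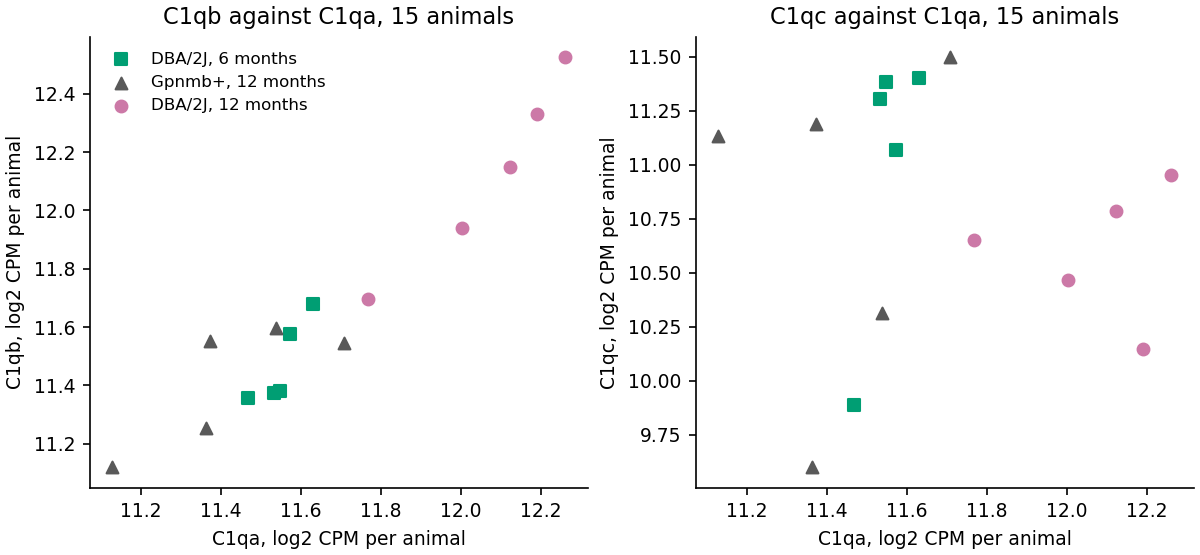
C1qb against C1qa and C1qc against C1qa in log2 CPM, 1 point per animal, with a symbol per group. C1qa and C1qb track each other over the 15 animals (r = 0.95), whereas C1qc is scattered at any level of C1qa (r = -0.08).

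C1q was then set against microglia identity markers as a reference inside the sorted cells. The measure was log2 CPM of a chain minus the mean log2 of CPM + 2 of 12 markers such as P2ry12 and Cx3cr1. Fcrls, also among the 12, was near the floor in Gpnmb+ animal 1 (0.0 CPM) and 12-month DBA/2J animal 4 (0.126 CPM), which lowers their reference. These animals had the highest C1qa values of their groups by this measure, 1.59 and 2.20. The measure without Fcrls was not tested. Relative to them C1qa was 0.70 ± 0.13 (SE) higher at 12 than at 6 months and C1qb 0.84 ± 0.19 higher, in each case with all 5 older animals above all younger ones. Both had an exact two-sided permutation p of 0.00794, the smallest possible, which was 0.0238 after adjustment over the 6 tests of this kind. The share of all genes that separate or pass by this measure was not counted. Against Gpnmb+ mice C1qa was 0.45 ± 0.16 higher (exact permutation p = 0.0238, adjusted 0.0476) and C1qb 0.51 ± 0.24 (exact permutation p = 0.0635, adjusted 0.0952). C1qc differed by -0.23 ± 0.37 and -0.35 ± 0.43 (exact permutation p = 0.579 and 0.452). The call of C1qa against Gpnmb+ was lost in 10 of 13 alternatives, with adjusted exact p-values up to 0.270, among them the removal of any 12-month DBA/2J animal other than 3 or of any Gpnmb+ animal other than 1. C1qb passed there (adjusted exact p = 0.0476) without Gpnmb+ animal 1.

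The markers themselves were not level. In 12-month DBA/2J against Gpnmb+, 8 of 12 had positive log2 fold changes and 2 were higher at an unadjusted p under 0.05 (2.76% of all genes were), with a median of 0.11 beside 0.05 for all genes. Olfml3, a secreted microglial protein gene, had 3553 ± 739 against 2108 ± 304 CPM, and Tmem119, a microglial membrane protein gene, 2415 ± 475 against 1554 ± 401 (SD, n = 5 each). Against 6-month DBA/2J 5 of 12 were positive, with a median of -0.07 beside 0.01 for all genes, so the reference was not level there either. At an unadjusted p under 0.05 1 marker was higher and 2 were lower, beside 2.1% and 1.55% of all genes. The latter were the purine receptor genes P2ry12, with a log2 fold change of -0.45 ± 0.19, and P2ry13, with -0.76 ± 0.28 (SE).

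Of 25 genes for the proteases and later components of complement, 7 passed the filter and 7 had 0 counts in every animal. C1s1, one of the proteases that C1q activates, was at 0 in both 12-month groups, and C1ra, the other, averaged 1.78 ± 2.35 CPM in 12-month DBA/2J (SD, n = 5). Against Gpnmb+ mice 5 of 7 were positive and 2 were higher at an unadjusted p under 0.05, beside 2.76% of all genes, with a median log2 fold change of 1.19 beside 0.05. C4b, the C4 gene and next substrate of the pathway, had 39.0 to 180 CPM (median 148) in 12-month DBA/2J, 0.0 to 11.7 (median 0.0908) in Gpnmb+ and 0.0 to 16.7 (median 4.26) in 6-month animals. Every 12-month DBA/2J animal was therefore above every other animal, a pattern that 0.832% of all genes had against Gpnmb+ and 1.43% against 6 months. Its log2 fold change was 4.91 ± 1.53 against Gpnmb+ and 4.52 ± 1.50 against 6 months (SE, unadjusted p by edgeR's test 0.00501 and 0.00769, adjusted 0.574 and 0.818). C4b can share reads with its close copy C4a. Cfb, factor B of the alternative pathway, was the other higher gene and had 0.0 to 17.5 CPM in 12-month DBA/2J and at most 0.0604 in Gpnmb+, but reached 12.5 at 6 months. C3, the central component, had 1.36 to 30.5 CPM in 12-month DBA/2J, 0.0 to 7.74 in Gpnmb+ and 0.0 to 3.95 at 6 months, and the ranges overlapped.

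Complement receptors and C1q-binding proteins were measured better, with 11 of 14 genes passing the filter. Against Gpnmb+ 9 of 11 were positive and 4 of these had an unadjusted p below 0.05, beside 2.76% of all genes, with a median log2 fold change of 0.76 beside 0.05. Itgb2, the shared subunit of complement receptors 3 and 4, had 508 ± 121 against 299 ± 140 CPM, and C3ar1, the receptor of the fragment C3a, 444 ± 144 against 292 ± 121 (SD, n = 5 each). Both ranges overlapped between the groups. The other higher genes, Cd93 and Cr2, averaged under 3 CPM in 12-month DBA/2J. Against 6 months 7 of 11 were positive and 2 were higher (2.1% of all genes were), C3ar1 with a log2 fold change of 0.72 ± 0.28 and C1qbp, a mostly mitochondrial protein that binds C1q, with 1.54 ± 0.41 (SE). The median there was 0.08 beside 0.01 for all genes.

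Regulators of complement had 4 of 14 genes passing the filter and 0 called in either direction at an unadjusted p under 0.05 in both comparisons. Other genes with a C1q-type domain were scarce: 4 of 25 passed the filter, 7 of 25 were at 0 in every animal, and 0 of 4 had an unadjusted p under 0.05 in either comparison. Against Gpnmb+ 2.76% of all genes were higher and 2.45% lower in that way, and against 6 months 2.1% and 1.55%. With 4 genes tested in each list, 0 calls lie near these shares. Of 13 genes for the removal of synapses or cells by microglia, 12 were tested. Against Gpnmb+ the higher ones with an unadjusted p below 0.05 were 3 (0 lower), where 2.76% of all genes were higher and 2.45% lower, namely Itgb2, the receptor kinase gene Axl (155 ± 55 against 59.7 ± 43.4 CPM) and the lipid receptor gene Trem2 (1609 ± 410 against 1239 ± 188 CPM, SD, n = 5 each). Against 6 months, where 2.1% of all genes were higher and 1.55% lower, 2 were higher, Trem2 and its adaptor Tyrobp, and 2 lower, Sirpa, the receptor of the signal that restrains engulfment, and Pros1, a ligand of Axl's family.

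Of 9 transcription factors of the myeloid lineage, all tested, 0 were called against Gpnmb+ at an unadjusted p under 0.05. Among all genes 2.76% were higher and 2.45% lower in that way, so 0 of 9 lies near these shares. In this comparison 2 positive values stood beside 7 negative ones. Against 6 months 2 were lower and 0 higher, beside 1.55% and 2.1% of all genes. Spi1, which encodes PU.1, had 103 ± 18 CPM at 12 months and 198 ± 93 at 6 months (SD, n = 5 each), with a log2 fold change of -0.94 ± 0.39 (SE).

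Genes whose levels followed the chains were ranked among 3404 well-expressed genes, by Pearson's r over 15 animals with the mean of the 3 chains, as a description. The highest were Sri (r = 0.86), a calcium-binding protein gene, Ier3ip1 (0.81), Trem2 (0.77), Dnajc8 (0.77), Snrpb (0.76), Ctsz (0.76), a lysosomal protease gene, Gm15427 (0.74) and the ribosomal protein gene Rpl7 (0.74). The lowest were Tbc1d5 (-0.81), Cic (-0.81), Epb41l2 (-0.76) and Clec7a (-0.75). Ranking by each chain alone, added after the data were seen, gave Ctsz (r = 0.92), Ctss (0.92), Olfml3 (0.92) and Tmem176a (0.91) for C1qa and B2m (0.97), Tmem176a (0.92), Ctss (0.92) and Ly86 (0.92) for C1qb. For C1qc the leading genes were others: Sumf1 (r = 0.87), Fam49b (0.84), Lrrc58 (0.79) and Rp2 (0.76), with Spi1 in the 8th place (0.72). These correlations run over the same libraries, whose depths differ, and include the differences between groups.

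Markers of other cells and of tissue handling were read beside these results, in summed CPM of library totals. Immediate early and heat shock genes, which respond to dissociation, summed to 10640 to 14188 in 12-month DBA/2J, 16324 to 32200 in Gpnmb+ and 12489 to 33332 at 6 months. With an unadjusted p below 0.05, 17 of the 24 were lower in 12-month DBA/2J than in Gpnmb+ mice and 5 were lower than at 6 months, and 0 were higher in either comparison. Among all genes 2.45% and 1.55% were lower in that way. Jun, a transcription factor gene of this list, had a log2 fold change of -1.27 ± 0.32 (SE) against Gpnmb+. Border-associated macrophages also make C1q. Their 12 markers summed to 75.7 to 296 in 12-month DBA/2J, 6.25 to 218 in Gpnmb+ and 75.4 to 222 at 6 months, with Cd209f and Cd209g at 0 throughout. At an unadjusted p under 0.05, 1 of 7 tested genes (F13a1) was higher against Gpnmb+ and 0 against 6 months. Among all genes 2.76% and 2.1% were higher in that way. In both comparisons 6 of 7 were positive. Their median log2 fold changes were 0.38 and 1.14, beside 0.05 and 0.01 for all genes. The 11 monocyte markers summed to 9.99 to 110, 1.16 to 46.3 and 14.2 to 59.6, with 0 of 3 tested genes called. Of these, 3 were positive against Gpnmb+ and 2 against 6 months, with medians of 1.15 and 0.33. Rod photoreceptor markers, 15 genes, summed to 521 to 2760, 386 to 10569 and 219 to 2559, with 0 called against Gpnmb+ and 1 (Gngt1) higher against 6 months. Positive were 2 of 15 against Gpnmb+ and 13 of 15 against 6 months, with medians of -0.54 and 1.19. Of the 10 Muller glia and astrocyte markers, Gfap was at 0 throughout, 4 passed the filter, and Apoe alone was higher, with 10967 ± 7956 CPM in 12-month DBA/2J against 1971 ± 1765 in Gpnmb+ and 1500 ± 646 at 6 months (SD, n = 5 each). Apoe is also made by activated microglia, and the list's sums of 3630 to 21954, 884 to 5439 and 1239 to 2761 follow it. The part of these levels in the C1q differences was not tested.

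Depth was not even between the groups either, and the retinas with few genes were all Gpnmb+. Without them the log2 fold change between 12-month DBA/2J and Gpnmb+ mice was 0.53 in C1qa and 0.70 in C1qb (unadjusted p by edgeR's test 0.00154 and 0.00143, adjusted 0.662), and -0.02 in C1qc. Only 3 Gpnmb+ animals remained in that fit.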

How the data were processed

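RNA of sorted retinal microglia was measured in 24 retinas of 15 animals, with groups, animals, eyes and grades taken from the labels. The authors deposited expected counts per gene (estimated, not always whole), TPM values and transcript lengths for each retina, as the file headers say. Tools in the submitters' processing notes are Salmon 1.4.0, DESeq2 1.30.1 and R 4.0.3, with the build mm10 and no roles. Which tool made the expected counts, and on which annotation, is not given in the sources used here. A deposited table with 24 columns of FPKM values was not used, since the labels do not identify its columns.

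Expected counts were rounded to whole numbers and summed per animal, or per animal and grade. Libraries of the same group all differed (91 pairs), so none was counted as a duplicate. Of 47729 gene identifiers, 47224 matched a symbol. Genes were tested over all animals in 1 fit with edgeR 4.0.16 (R 4.3.3), by its quasi-likelihood test with TMM scaling, after filterByExpr (minimum count 10, minimum total 15), and p-values were adjusted by Benjamini and Hochberg over all genes of a comparison. The grade fit had 17 sums and the trend 7, with scores 0, 1 and 2. Ratios used effective lengths and exact two-sided permutation tests, and correlations 100000 resamples or, for fellow eyes, all pairings. CPM per retina and marker sums are scaled to library totals, and CPM per animal by TMM. Alternatives were DESeq2 1.42.0, limma 3.58.1, other scaling and filters, other sets of retinas or animals and deposited TPM values with a pseudocount of 1. The script was tested on simulated counts.

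Nothing says that animals of a group came from separate litters, so p-values measure the spread between these animals. The members, the 17 gene lists and the tests were chosen with earlier results of these data known. Named were the chains, up to 8 genes most and 4 least like their mean (mean log2 CPM of at least 5), in each list up to 4 tested genes of smallest p, neighbours within 200 kb and markers at 0. Gpnmb, C1s1, C1ra, Fcrls, Ly6c2 and the genes most like each chain alone were chosen after their values were seen. Some genes of the lists enter the counts but are not reported here by name.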

Additional observations from a re-analysis of the deposited data

How the results depend on the processing

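Across all alternatives 473 values kept their direction and side of the threshold, 15 newly passed it, 11 no longer passed it and 23 changed sign. C1qa and C1qb stayed positive in both comparisons of 12-month DBA/2J under all 22 alternatives, from 0.40 to 0.77 and 0.40 to 0.89 against Gpnmb+ and from 0.39 to 0.61 and 0.41 to 0.79 against 6 months, and C1qc stayed negative. DESeq2 brought C1qa (0.59) and C1qb (0.67) past the threshold against Gpnmb+, C1qa (0.53) and C1qb (0.68) against 6 months and C1qa in moderate retinas (0.74). Against 6 months C1qa also passed with a random animal effect (0.39) and C1qa (0.48) and C1qb (0.59) with sample quality weights, and without a low-count filter C1qb passed in moderate retinas (0.86). The cause was not tested. A random animal effect moved the median of all genes to 0.59 against Gpnmb+ and to -0.43 against 6 months, so relative to that median C1qa and C1qb were lower against Gpnmb+ there. DESeq2 called 226, 148 and 179 of the 23782 genes with a p-value in the 3 comparisons, edgeR 0 of 12977.

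Values that changed sign were these. Between 6-month DBA/2J and Gpnmb+, C1qb was -0.00299 with DESeq2, -0.00404 with RLE scaling, -0.00571 with a random animal effect and -0.0895 with quality weights, where C1qa was -0.0622 and C1qc -0.0678, and C1qa was -0.00186 without retinas of few genes. That setting also gave 0.13 for C1qc in moderate retinas, 0.15 for C1qc relative to the markers against Gpnmb+ (-0.35 with all retinas) and correlations of 0.0680 (C1qa and C1qc) and 0.0234 (C1qb and C1qc). The trend of C1qa was 0.0188 without a filter. With 1 retina per animal the C1qb to C1qa difference from Gpnmb+ was -0.0128. C1qa relative to the markers against Gpnmb+ lost its call without retinas of few genes (0.49) and with 1 retina per animal (0.41), and the centred correlation of C1qa and C1qb on TPM values (0.74).

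Leaving out each animal in turn, the 6-month DBA/2J against Gpnmb+ value of C1qb was -0.0136 to 0.101, moderate C1qb 0.56 to 1.08, moderate C1qc -0.30 to 0.10 and mild C1qc -0.925 to 0.0450. The trends were -0.134 to 0.0830 (C1qa), -0.306 to 0.0879 (C1qb) and -0.348 to 0.0270 (C1qc). Against Gpnmb+ the ratios of C1qc were -1.06 to -0.62 (to C1qa) and -1.10 to -0.69 (to C1qb), and against 6 months -1.18 to -0.78 and -1.31 to -0.90. Relative to the markers C1qa was 0.33 to 0.53 and C1qb 0.34 to 0.63 against Gpnmb+.

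The labels number animals 1 to 5 in each group without saying that a number is shared. Same-numbered animals of different groups deviated with correlations of -0.05 to 0.09 over 12977 genes, and 3 of 15 correlated best with their own number. With the number as a replicate block C1qa was 0.64 and C1qb 0.71 against Gpnmb+ (adjusted p = 0.553 and 0.562 by edgeR), C1qa 0.53 and C1qb 0.66 against 6 months, and the trend of C1qc turned from -0.14 to 0.34. The block raised the genes called from 0 to 4 in moderate and to 1 in severe retinas and called no chain. Leaving out all retinas of few genes left 3 Gpnmb+ animals.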
